A study of Macaca fascicularis with 2 samples.

Results

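The replication and variant histone genes examined here were all rows of the deposited count table whose gene name started with HIST1H, HIST2H, HIST3H or HIST4H, which gave 22 members among 18446 genes. They comprised 2 linker histone H1 genes, 8 H2A genes, 10 H2B genes and 2 H3 genes. No H4 gene and no HIST1H1T row carried such a name, and 3213 rows of the table carried an Ensembl identifier in place of a symbol, so H4 and most H3 genes were not analysed here. The samples were whole ovaries of Macaca fascicularis, 1 fetus at embryonic day 84 (E84) and 1 at embryonic day 116 (E116), with both ovaries of a fetus digested together into 1 library of single cells. The table held 20967 cells with a median of 3756 unique molecular identifiers (UMIs, 1 for each captured RNA molecule) and 1569 genes. The barcode of 10621 cells ended in 1 and that of 10346 cells in 2, with 59899960 and 88924217 UMIs in all. No label says which ending belongs to which fetus, so the cells were pooled and results by stage were left out. Between the endings, 27 barcodes were shared. Cells are not replicates and each stage had 1 library, so no test was possible. Levels are given as CPM, the summed UMIs of a cell group scaled to a common library total, with exact 95% Poisson intervals, which cover counting error only.

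Chromatin is built from nucleosomes, in which DNA wraps around the core histones H2A, H2B, H3 and H4, with a linker histone H1 at the entry and exit of the DNA. Most core histone genes lie in clusters, are transcribed together during S phase of the cell cycle, and give messages that end in a stem-loop instead of a poly(A) tail. A smaller group of variant genes is expressed outside S phase or only in certain tissues. Among them HIST1H2AA, HIST1H2BA and HIST3H3 encode forms of H2A, H2B and H3 known from testis or oocyte. The libraries were primed on poly(A) RNA, so the counts below cover messages that could be captured that way and are not a measure of total histone message. Histone genes within a type have near-identical coding sequences, so values of single members are uncertain where reads could not be told apart.

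Cell groups were taken from clusters named by marker genes, and the members were kept out of the clustering. Germ cell-like cells numbered 6078, of which 650 were oogenesis-like, 1586 meiotic-like, 1467 RA-responsive-like and 254 mitotic-like, while 2121 had no step. The mitotic-like cells were in 1 sub-cluster that raised 9 of 9 measured markers, the 3 RA-responsive-like sub-clusters raised 6 or 7 of 10, both meiotic-like sub-clusters 10 of 10, and the oogenesis-like ones 6 and 7 of 9. Somatic cells of a named class numbered 12317, namely 4806 granulosa-like, 4573 stroma-like, 1261 ovarian surface epithelium-like, 744 erythroid-like, 545 endothelial-like, 247 macrophage-like and 141 pericyte-like cells. The steps were unequally spread over the libraries. Of the mitotic-like cells 251 had barcodes ending in 1 and 3 ending in 2, whereas of the oogenesis-like cells 21 ended in 1 and 629 in 2. The RA-responsive-like cells (1190 and 277) and the meiotic-like cells (1348 and 238) were found with both. Median UMIs per cell were 11925.5, 6039, 2121 and 3249.5 from the mitotic-like to the oogenesis-like step.

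The 22 members together held 51199 UMIs, and 2 genes made up most of them. HIST2H2AC, an H2A gene, had 21522 UMIs in 7748 cells, or 42% of the members' UMIs. HIST1H1E, which encodes the linker histone H1.4, had 16110 UMIs in 5671 cells, or 31.5%. Ranked by UMIs among all genes of the table, they stood at 950 and 1388. The next genes were far lower, with 2043 UMIs for HIST1H1B (linker histone H1.5), 1982 for HIST1H2BA, 1941 for HIST1H2AA, 1345 for HIST1H2AC, 987 for HIST2H3D and 738 for HIST1H2AD. The lowest were HIST3H3 with 53 UMIs, HIST3H2A with 43 and HIST3H2BB with 24. By histone type, H2A members held 52.6% of the UMIs, H1 members 35.5%, H2B members 9.88% and H3 members 2.03%. The most abundant H2B genes after HIST1H2BA were HIST2H2BF (556 UMIs) and HIST1H2BM (550 UMIs).

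**Figure D1:**
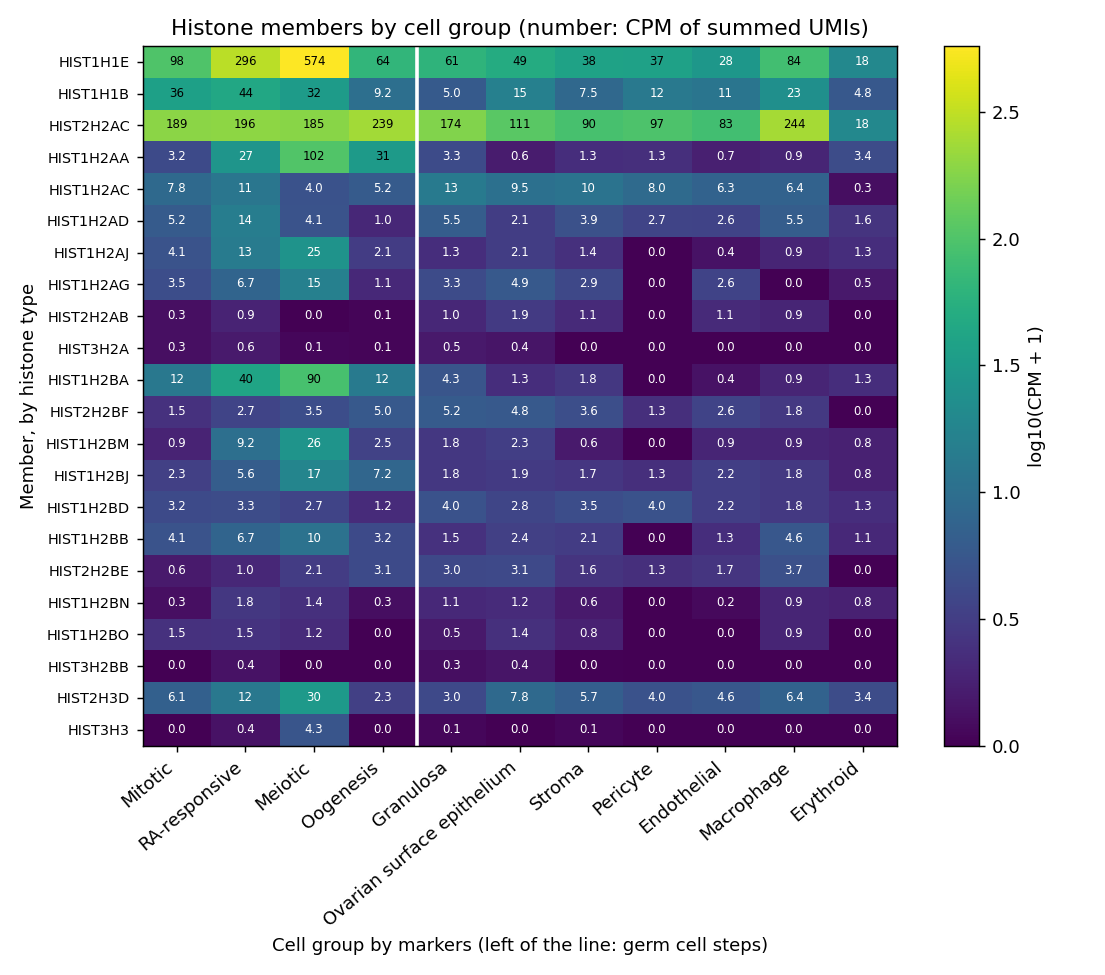
CPM of summed UMIs of the 22 members (rows, ordered by histone type and abundance) in 4 germ cell steps and 7 somatic classes (columns), with colour on a log10(CPM + 1) scale and the CPM written in each cell. HIST2H2AC lies between 185 and 239 CPM in the 4 germ cell steps, while HIST1H1E, HIST1H2AA and HIST1H2BA are highest in the meiotic-like step.

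Germ cell-like cells carried more histone message than somatic cells. All 22 members together stood at 631 CPM (624 to 639) in germ cell-like cells and at 233 CPM (229 to 236) in the named somatic classes, a log2 ratio of 1.44 (1.41 to 1.47). The log2 ratio was 1.36 among cells with barcodes ending in 1 and 1.34 among those ending in 2. At least 30 UMIs were required over both groups of a comparison before a single gene was compared, and 21 members met this. Of these, 11 were at least 2-fold higher in germ cell-like cells, against 24.8% of all genes compared, and 1 was at least 2-fold lower, against 22.4%. The median log2 ratio was 1.01 over these members and 0.12 over all genes compared.

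The forms known from testis or oocyte differed most between germ cells and somatic cells. HIST1H2AA had 1733 UMIs in germ cell-like cells (38.2 CPM) and 189 in the somatic classes (2.11 CPM), a log2 ratio of 4.18 (3.96 to 4.40). HIST1H2BA had 1727 and 241 UMIs (38.0 and 2.69 CPM), a log2 ratio of 3.82 (3.62 to 4.02). HIST3H3 came next at 3.47 (2.37 to 4.77), from 45 and 8 UMIs, and was found in only 27 cells of the table. When the depth of all cells was thinned to 2000 UMIs, HIST1H2AA was detected in 6.10% of germ cell-like cells (5.29 to 7.0, exact binomial interval), against 0.369% of somatic cells (0.260 to 0.508) and 0.698% of erythroid-like cells (0.191 to 1.78), which would not be expected to express it. The thinning left out 2948 germ cell-like and 2283 somatic cells below 2000 UMIs. For HIST1H2BA the shares were 9.14% of germ cell-like, 0.578% of somatic and 0.349% of erythroid-like cells. These somatic shares include the erythroid-like cells. Without them they were 0.349% for HIST1H2AA (0.240 to 0.49) and 0.592% for HIST1H2BA (0.447 to 0.768). Their intervals overlapped those of the erythroid-like shares, which were wide, from 4 and 2 cells. Granulosa-like cells had the highest somatic share of HIST1H2BA, at 0.858% (0.592 to 1.20). Whether free RNA in the droplets gave these UMIs was not tested.

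Of the 22 members, 16 were higher in germ cell-like cells, replication-type members among them, by unequal amounts. HIST1H2AJ, an H2A gene, had a log2 ratio of 2.94 (2.65 to 3.24), HIST1H2BM, an H2B gene, 2.70 (2.41 to 3.0), HIST1H1E 2.36 (2.31 to 2.41) and HIST1H1B 1.83 (1.70 to 1.97). HIST2H2AC, in contrast, was only slightly higher, at 0.62 (0.58 to 0.66). HIST1H2AC (-0.51), HIST1H2BD (-0.42), HIST2H2BE (-0.37) and HIST2H2BF (-0.30) were below 0. The member called lower was HIST2H2AB, with 20 UMIs in germ cell-like and 103 in somatic cells (log2 ratio -1.39, from -2.16 to -0.68). Genes of the S phase list, such as the MCM helicase subunits, were higher in germ cell-like cells as well, at least 2-fold in 17 of 19, with a median log2 ratio of 1.87. A list of 15 genes of G2 and mitosis had 14 at least 2-fold higher. Their part in the difference of the members was not tested.

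Within the germ line, the summed members were highest in the meiotic-like step. They stood at 380 CPM (359 to 401) in mitotic-like, 693 CPM (679 to 707) in RA-responsive-like, 1131 CPM (1108 to 1153) in meiotic-like and 390 CPM (379 to 402) in oogenesis-like cells. The intervals of the mitotic-like and oogenesis-like steps overlapped and the other steps stood apart. Within the meiotic-like step, the shallow sub-cluster with a median of 1497.5 UMIs had 1164 CPM and the deep one with a median of 12166 UMIs had 1118 CPM. Among the oogenesis-like cells the shallow sub-cluster (median 1152.5 UMIs) had 210 CPM and the deep one (median 18984 UMIs) 404 CPM.

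Without HIST2H2AC and HIST1H1E, the other 20 members were also highest in the meiotic-like and next in the RA-responsive-like step, at 92.4, 201, 371 and 87.2 CPM from the mitotic-like to the oogenesis-like step. The make-up by histone type, taken over all 22 members, also differed between the steps. From the mitotic-like to the oogenesis-like step, H1 members gave 35.3%, 49.1%, 53.6% and 18.8% of the members' UMIs. H2A members gave 56.3%, 38.7%, 29.7% and 71.7% over the same steps. The H2B share was 6.81%, 10.4%, 13.6% and 8.95%, and the H3 share 1.61%, 1.76%, 3.05% and 0.588%. These shares are of pooled cells and largely follow 2 genes. In meiotic-like cells HIST1H1E had 4128 (ending 1) and 778 (ending 2) of the 5180 H1 UMIs. In oogenesis-like cells HIST2H2AC had 2606 of the 3051 H2A UMIs. Shares by type without these 2 genes are not given. The RA-responsive-like sub-cluster led by RFX6, with 2 and 234 cells of endings 1 and 2, had 33.3% H1 and 54.9% H2A. That led by MKI67, with 513 and 18 cells, had 53.7% H1 and 34.0% H2A.

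**Figure D2:**
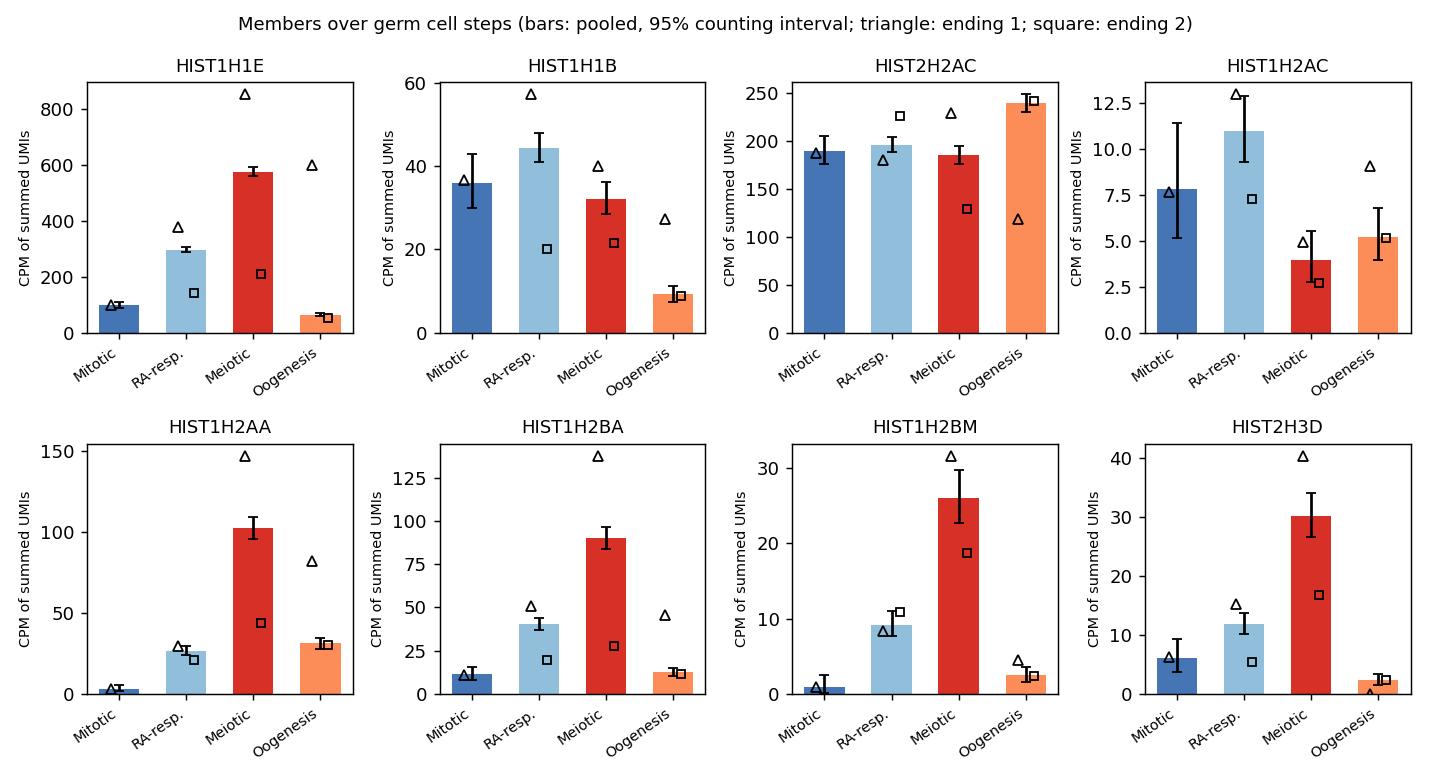
CPM of summed UMIs (y axis, each panel with its own scale from 0) of 8 members in the 4 germ cell steps; bars are all cells with 95% counting intervals, triangles are cells with barcodes ending in 1 and squares those ending in 2 (no square for the 3 mitotic-like cells of that ending). HIST1H1E reaches 574 CPM in the meiotic-like step, with 852 CPM for barcodes ending in 1 and 210 CPM for those ending in 2.

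Between the mitotic-like and RA-responsive-like steps, 7 of the 15 members compared were at least 2-fold higher in the latter, against 22.2% of all genes, and 0 were 2-fold lower, against 10.4%. The remaining 7 members had fewer than 30 UMIs in both groups together. The summed members differed by a log2 ratio of 0.87 (0.78 to 0.95). The largest folds belonged to HIST1H2BM (3 and 127 UMIs, log2 ratio 3.40, 1.82 to 5.70), HIST1H2AA (11 and 369 UMIs, 3.06, 2.21 to 4.08) and HIST1H2BA (40 and 555 UMIs, 1.79, 1.33 to 2.29). HIST1H1E went from 97.9 CPM (87.7 to 109) to 296 CPM (287 to 305), a log2 ratio of 1.59. HIST2H2AC did not differ beyond counting error, at 189 and 196 CPM (log2 ratio 0.05, -0.08 to 0.17), and HIST1H1B was close at 36.0 and 44.4 CPM (0.30, 0.02 to 0.59). Among barcodes ending in 1 the summed ratio was 1.08 and 10 of 15 members were 2-fold higher (background 20.2%) and 0 lower (background 9.81%). The comparison could not be made for barcodes ending in 2, which had 3 mitotic-like cells.

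From the RA-responsive-like to the meiotic-like step the members parted. Of 19 compared, 8 were at least 2-fold higher in meiotic-like cells, against 15.9% of all genes, and 2 were at least 2-fold lower, against 14.5%. HIST3H3 had the largest ratio (5 and 37 UMIs, log2 ratio 3.58, 2.23 to 5.29). It was found in 27 cells of the table, with 34 of its 53 UMIs in 10 cells, which the interval does not cover. Next were HIST1H2AA (1.94, 1.76 to 2.12) and HIST1H2BJ, an H2B gene (1.60, 1.19 to 2.02). HIST1H2AA thus went from 26.7 to 102 CPM, and HIST1H2BA from 40.2 to 90.1 CPM (1.17, 1.01 to 1.33). HIST1H2BM, HIST2H3D, HIST1H2AG and HIST2H2BE were the other genes past 2-fold, the last from 14 and 18 UMIs. HIST1H2AD (188 and 35 UMIs) and HIST1H2AC (152 and 34 UMIs) went the other way, with log2 ratios of -1.73 (-2.30 to -1.21) and -1.47 (-2.05 to -0.92), and the third lowest was HIST1H1B at -0.47 (-0.68 to -0.26). HIST1H1E, at 0.96 (0.90 to 1.02), lay just under 2-fold.

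The libraries did not give the same size of this step. The summed members had a log2 ratio of 0.71 (0.66 to 0.75) in all cells, 1.00 among barcodes ending in 1 and 0.087 among those ending in 2. In the second set HIST2H2AC was lower in meiotic-like cells (log2 ratio -0.82), whereas in the first it was higher (0.35). HIST1H2AA was higher in meiotic-like cells with either ending (2.30 and 1.07), as were HIST1H1E (1.17 and 0.59), HIST2H3D (1.40 and 1.63) and HIST1H2AG (1.28 and 1.12). HIST1H2AD (-1.52 and -2.08) and HIST1H2AC (-1.39 and -1.43) were lower with either ending. Among barcodes ending in 1, 8 of 15 members were at least 2-fold higher (background 15.3%) and 2 were lower (background 16.8%). Among barcodes ending in 2, 3 of 14 members were 2-fold higher (background 15.8%) and 3 were 2-fold lower (background 13.2%). The balance of calls turned when cells were limited to 10% mitochondrial UMIs, which left 398 meiotic-like and 239 RA-responsive-like cells: 2 of 12 members were higher (background 18.7%) and 5 lower (background 17.7%), while the summed ratio was 0.38 (0.30 to 0.46). With 200 to 3000 detected genes 5 of 12 were higher (background 15.7%) and 2 lower (background 17.8%).

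The S phase and mitosis genes did not share this pattern. Their sums were highest in RA-responsive-like cells, at 2685 CPM for S phase and 3086 CPM for G2 and mitosis, and lower in meiotic-like cells, at 2000 and 2105 CPM. In the meiotic-like over RA-responsive-like comparison the S phase list had a median log2 ratio of -0.46 and the mitosis list of -0.39, while the median of the 19 members was 0.96 and that of all genes 0.05. Of 19 S phase genes, 1 was at least 2-fold higher and 6 were lower, and of 15 mitosis genes 0 were higher and 7 lower. SLBP, whose product binds the stem-loop of replication histone messages, was highest in the meiotic-like step as well, at 91.8, 283, 474 and 260 CPM over the 4 steps.

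From the meiotic-like to the oogenesis-like step, 13 of 17 members compared were at least 2-fold lower, against 26.2% of all genes, and 0 were 2-fold higher, against 17.9%. The summed members had a log2 ratio of -1.53 (-1.58 to -1.48). The largest differences with UMIs in both steps were those of HIST1H2AG (129 and 12 UMIs, log2 ratio -3.78, -4.77 to -2.92), HIST2H3D (258 and 25 UMIs, -3.72, -4.37 to -3.12) and HIST1H2AJ (216 and 23 UMIs, -3.58, -4.27 to -2.96). HIST3H3 had 37 UMIs in meiotic-like and none in oogenesis-like cells, so it was at least 15.7-fold lower, taking 3 counts as the limit in that group. This bound rests on few cells, as HIST3H3 was found in 27 cells of the table. HIST1H2BA went from 90.1 to 12.5 CPM (-2.85) and HIST1H2AA from 102 to 31.2 CPM (-1.71). By summed UMIs HIST2H2AC was higher in oogenesis-like cells, at 239 against 185 CPM (0.37, 0.28 to 0.46). The share of cells with it did not rise. Among cells thinned to equal depth, it was detected in 24.3% of oogenesis-like (20.1 to 29.0) and 27.6% of meiotic-like cells (24.6 to 30.8). HIST2H2BF (0.50), HIST2H2BE (0.57) and HIST1H2AC (0.39) had log2 ratios above 0 with intervals that included 0.

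This last comparison set 629 oogenesis-like cells with barcodes ending in 2 against a meiotic-like group mostly ending in 1, and its size depended on that. Among barcodes ending in 2 the summed log2 ratio was -0.47, with 8 of 14 members 2-fold lower (background 24.5%) and 1, HIST2H2BF, 2-fold higher (background 18.4%). HIST1H1E changed most, with a log2 ratio of -3.16 in all cells, -1.99 among barcodes ending in 2 and -0.51 among those ending in 1, which had 21 oogenesis-like cells. Of 11 members compared with that ending, 6 were 2-fold lower (background 15.9%) and 0 higher (background 13.0%). HIST2H3D (-2.84), HIST1H2AG (-3.07), HIST1H2AJ (-2.79) and HIST1H2BM (-2.94) were still far lower among barcodes ending in 2. With cells limited to 3000 detected genes 4 of 6 members compared were 2-fold lower (background 33.0%) and 0 higher (background 15.9%). With at most 10% mitochondrial UMIs 3 of 6 were lower (background 29.4%) and 0 higher (background 18.5%). A single oogenesis-like cell had 306 UMIs of HIST2H2AC, and without it the group stood at 212 CPM in place of 239.

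**Figure D3:**
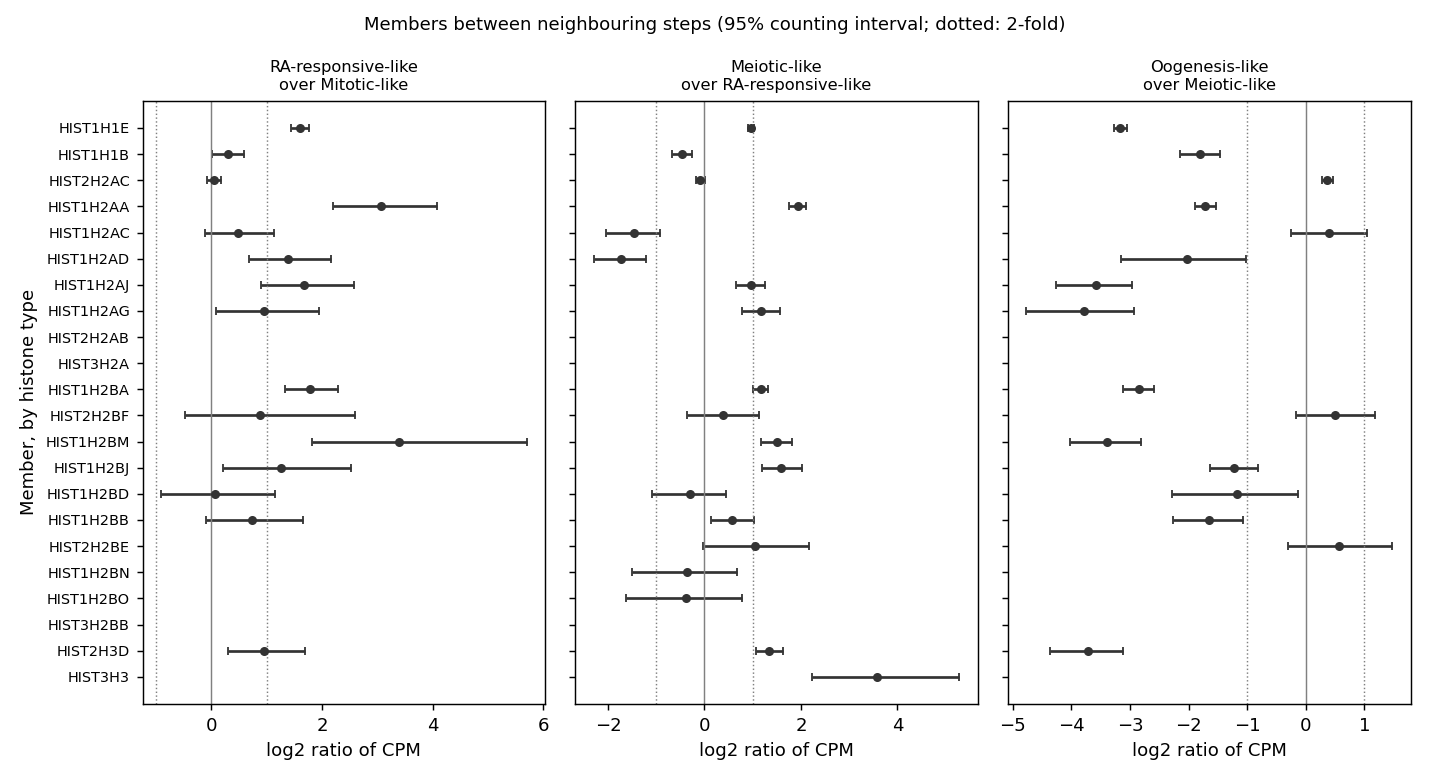
Log2 ratio of CPM (x axis) of each member (y axis, by histone type) between neighbouring germ cell steps, with 95% counting intervals and dotted lines at 2-fold; members under 30 UMIs in a comparison, and HIST3H3 in the last one with none in oogenesis-like cells, are not drawn. The third panel holds 12 drawn members below -1 and none above 1.

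Taken by the step in which a member was highest, 0 of 19 members with 30 or more UMIs over the 4 steps peaked in the mitotic-like step, 6 in the RA-responsive-like, 10 in the meiotic-like and 3 in the oogenesis-like step. Over all genes the shares were 20.9%, 20.8%, 33.1% and 25.2%. HIST1H1B, HIST1H2AC, HIST1H2AD, HIST1H2BD, HIST1H2BN and HIST1H2BO peaked in RA-responsive-like cells. HIST2H2AC, HIST2H2BE and HIST2H2BF peaked in oogenesis-like cells, whereas HIST2H3D, of the same cluster by name, peaked in meiotic-like cells. The 10 genes of the meiotic-like step included HIST1H1E and all 3 forms known from testis or oocyte. These peaks are of pooled cells, and the endings were unequally spread over the steps. Among barcodes ending in 2, HIST1H1B was as high in meiotic-like cells (21.6 CPM) as in RA-responsive-like cells (20.2 CPM), so its peak was not kept there. For HIST2H2AC the oogenesis-like cells of that ending had 241 CPM against 226 CPM in the RA-responsive-like ones. The former value included an oogenesis-like cell with 306 UMIs of HIST2H2AC. Without that cell the pooled oogenesis-like step fell from 239 to 212 CPM. Whether the order within the ending holds without it was not tested. Among cells thinned to equal depth, HIST2H2AC was detected in 24.3% of oogenesis-like and 29.0% of RA-responsive-like cells, with overlapping intervals.

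HIST1H2AA and HIST1H2BA are neighbours on chromosome 4 in the RefSeq annotation of this species, where their current symbols H2AC1 and H2BC1 follow each other with no gene between. Their levels over the 4 steps were 3.20, 26.7, 102 and 31.2 CPM for HIST1H2AA and 11.6, 40.2, 90.1 and 12.5 CPM for HIST1H2BA, so both peaked in the meiotic-like step, and the H2B form was the higher of the pair in mitotic-like and RA-responsive-like cells while the H2A form was higher in oogenesis-like cells. In pooled cells, detection of one went with detection of the other. Of 191 germ cell-like cells with HIST1H2AA after thinning to 2000 UMIs, 28.3% also had HIST1H2BA, against 7.89% of the germ cell-like cells without HIST1H2AA. Within the meiotic-like step alone the shares were 35.7% and 15%. For HIST1H1E and HIST2H2AC the same shares were closer, at 31.3% and 24.1% over germ cell-like cells. All these shares pool the barcode endings, between which levels differed. In meiotic-like cells of endings 1 and 2, HIST1H2AA stood at 147 and 43.5 CPM and HIST1H2BA at 138 and 27.8 CPM. Whether the joint detection holds within an ending was not tested.

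Single cells held much of some members. HIST3H3 was found in 27 cells, and its 10 highest cells, 8 of them meiotic-like, had 34 of its 53 UMIs (64.2%). The 10 cells with the most UMIs of HIST1H2BM had 26.2% of its UMIs, and those of HIST1H2AJ 15.5%, HIST1H2AA 12.2% and HIST2H3D 10.9%, whereas those of HIST1H2AC had 3.05%. Of these 10 cells, 7 were meiotic-like for HIST1H2BM, 7 for HIST1H2AJ, 9 for HIST1H2AA and 7 for HIST2H3D. All 10 cells with the most HIST2H2AC were oogenesis-like, and they held 906 of the 2606 UMIs of HIST2H2AC in that step. The cell with the most UMIs of the 20 members apart from HIST2H2AC and HIST1H1E was meiotic-like, ended in 2 and had 147 of them among 25287 UMIs. That cell also had 138 UMIs of the S phase genes and was the highest one for HIST1H1E (71 UMIs), HIST1H2BM (30), HIST1H2BJ (11), HIST1H2AG (8) and HIST3H3 (7).

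The 12 measured histone variants outside the clusters behaved in several ways over the same steps. H1FOO, the oocyte linker histone, had 248 UMIs in oogenesis-like cells (22.7 CPM) and 6 in meiotic-like cells (0.702 CPM), a log2 ratio of 5.02 (3.87 to 6.48), while HIST1H1E went the other way. H2AFX, the H2A form that is phosphorylated at DNA breaks, was highest in the meiotic-like step (0.581, 1.38, 8.55 and 0.734 CPM), as was H1F0, a linker histone of non-dividing cells (1.45, 4.05, 16.2 and 3.39 CPM). H2AFZ, a replication-independent H2A, stood at 785, 562, 369 and 134 CPM, and H3F3B, which encodes H3.3, at 1535, 1584, 1022 and 1843 CPM, the most abundant of these variants in the germ line. In the last step 6 of 11 variants compared were at least 2-fold lower and 1, H1FOO, higher. Of the 18 chaperones and acetylation genes compared there, 3 were at least 2-fold higher and 4 lower, and of the 16 genes of histone mRNA transcription and processing 0 were higher and 3 lower. The shares over all genes were 17.9% higher and 26.2% lower, so the chaperone counts lay near them.

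Among somatic classes the members ranged over several-fold. Macrophage-like cells had 389 CPM (353 to 428) for all members, granulosa-like 294 CPM (288 to 299), ovarian surface epithelium-like 226 CPM (219 to 234), stroma-like 179 CPM (174 to 184), pericyte-like 171 CPM (142 to 203), endothelial-like 152 CPM (141 to 162) and erythroid-like 58.3 CPM (50.9 to 66.6). Stroma-like and pericyte-like cells did not differ beyond counting error, nor did pericyte-like and endothelial-like cells. This order was that of pooled cells and depended on the mix of endings: among barcodes ending in 1, endothelial-like cells stood at 318 CPM, beside 315 CPM in ovarian surface epithelium-like and 261 CPM in stroma-like cells, and 399 of the 545 endothelial-like cells ended in 2. HIST2H2AC set most of this order, at 244 CPM in macrophage-like, 174 in granulosa-like, 111 in ovarian surface epithelium-like, 89.9 in stroma-like and 18.5 in erythroid-like cells. The macrophage-like cluster also raised lymphocyte markers. HIST1H1B was highest among somatic classes in macrophage-like (23.0 CPM) and ovarian surface epithelium-like cells (15.1 CPM). A stroma-like cluster of 202 cells led by INSL3, which had the proliferation genes RRM2 and UBE2C among its 10 leading genes, stood at 470 CPM for all members, with 59.9 CPM for HIST1H1B and 38.6 CPM for HIST2H3D, against 7.54 and 5.66 CPM in all stroma-like cells.

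Replication-type histone messages are made in S phase, so the members were set beside the UMIs of 19 S phase genes in each cell, after thinning to 2000 UMIs. In stroma-like cells all members stood at 169 CPM with no S phase UMI, 187 with 1 or 2, 408 with 3 to 5 and 560 with 6 or more. For RA-responsive-like cells the corresponding levels were 478, 438, 550 and 1060 CPM, and for meiotic-like cells 619, 908, 1309 and 1813 CPM. Over all somatic classes, cells with S phase UMIs had a log2 ratio of 0.41 (0.32 to 0.49) over cells with none, and over germ cell-like cells 1.25 (1.02 to 1.49), where 233 cells had none. Thinned to 1000 UMIs in place of 2000, the germ cell ratio was 0.58 (0.44 to 0.72). The somatic ratio mixes classes of unlike levels, of which erythroid-like cells were the lowest. The germ cell ratio also mixes steps of unlike levels, and 51 of the 233 cells were mitotic-like. Cells with none and with any S phase UMI stood at 225 and 390 CPM in mitotic-like and 478 and 726 CPM in RA-responsive-like cells. In meiotic-like cells they stood at 619 and 1327 CPM, and in oogenesis-like cells at 83.3 and 382 CPM. In oogenesis-like cells the levels were 373 CPM with 1 or 2 S phase UMIs, 364 with 3 to 5 and 431 with 6 or more, and overlapped in their intervals, with 83.3 CPM in the 30 cells with none. In granulosa-like cells the 4 levels lay between 306 and 455 CPM. The mix of barcode endings differed little between the bins of germ cell-like cells.

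**Figure D4:**
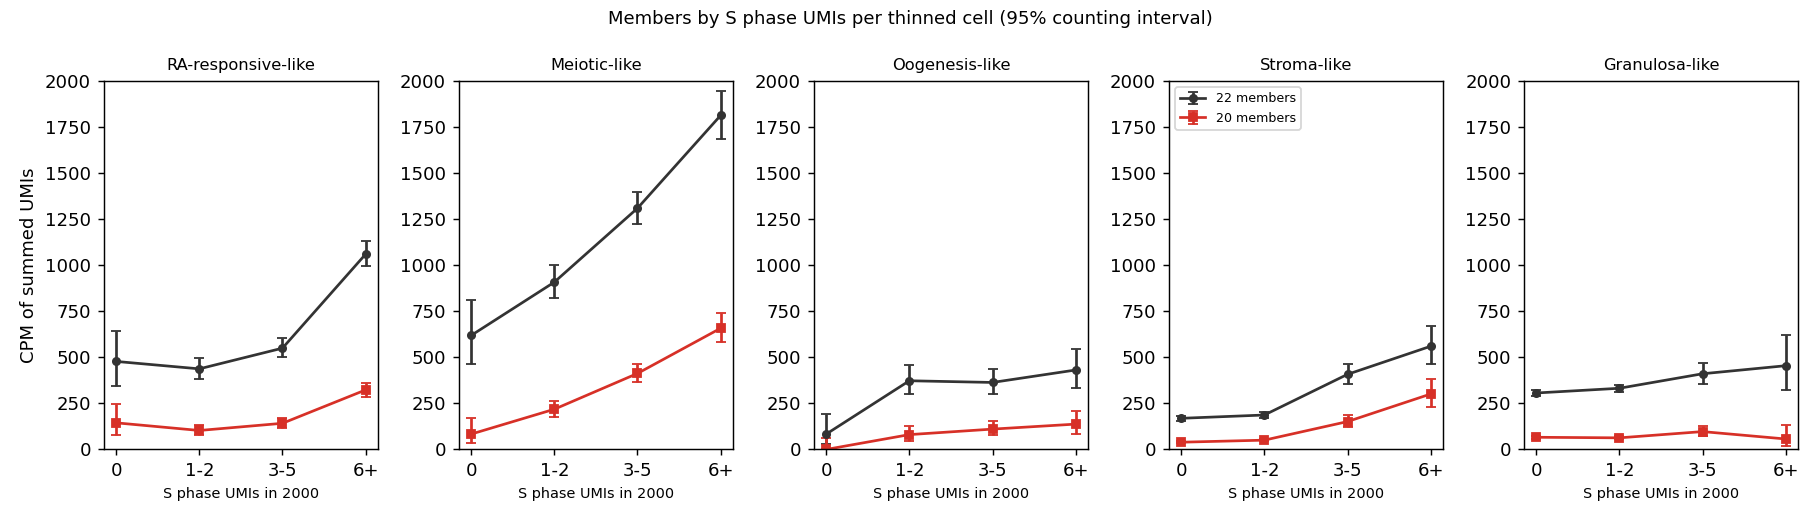
CPM of summed UMIs (y axis) by the number of UMIs of 19 S phase genes in each cell after thinning to 2000 UMIs (x axis), in 5 cell groups, for all 22 members (black circles) and for the 20 without HIST2H2AC and HIST1H1E (red squares), with 95% counting intervals. All members go from 619 to 1813 CPM in meiotic-like cells and from 169 to 560 CPM in stroma-like cells.

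Cells were also split by S phase and mitosis genes together. Among stroma-like cells, 102 cells had at least 3 UMIs of each list and stood at 1044 CPM for all members, against 174 CPM in 3334 cells under 3 of each (log2 ratio 2.59, 2.37 to 2.80). The 277 cells with S phase UMIs alone stood far lower than the 102 cells, with 34 UMIs or 61.4 CPM for the 20 members without the most abundant pair against 554 CPM, and the 107 cells with mitosis UMIs alone stood at 117 CPM. HIST1H1B and HIST2H3D differed most, with log2 ratios of 5.75 (4.83 to 6.71) and 5.70 (4.77 to 6.67), from 2.55 CPM (17 UMIs each) in cells with neither list to 137 and 132 CPM (28 and 27 UMIs). HIST1H1E followed at 2.49 (2.01 to 2.94), HIST1H2AC at 1.73 (0.47 to 2.78) and HIST2H2AC at 1.52 (1.09 to 1.93). The ratios of HIST1H1B were 5.59 among barcodes ending in 1 and 5.29 among those ending in 2.

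The same split separated members in the germ line. In RA-responsive-like cells HIST1H1B had a log2 ratio of 4.04 (1.52 to 9.36, from 90 and 1 UMIs) and HIST1H1E of 1.77 (1.25 to 2.34), while HIST2H2AC was at -0.46 (-0.87 to -0.03). All members stood at 909 CPM in the cells with both lists and 487 CPM in those with neither. In meiotic-like cells HIST1H1B was at 3.24 (0.69 to 8.58, from 42 and 1 UMIs), HIST1H1E at 1.00 (0.66 to 1.35) and HIST2H2AC at -0.03 (-0.48 to 0.45). All members stood there at 1589 and 810 CPM. In oogenesis-like cells all members differed by 0.22 (-0.31 to 0.75), which included 0, and HIST2H3D had no UMI in either set of thinned cells. Over germ cell-like cells as a whole, HIST2H2AC was higher in cells with S phase UMIs than in those with none (log2 ratio 0.56, 0.19 to 0.95), and did not differ beyond counting error by mitosis UMIs (0.14, -0.14 to 0.43).

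The 2 barcode endings, each a library of 1 fetus, differed for the members within every class compared, with higher levels at ending 1 in all of them but erythroid-like cells, where all members stood at 44.7 CPM with ending 1 and 102 CPM with ending 2 (log2 ratio -1.19, -1.59 to -0.79). HIST1H1E stood at 99.6 CPM (ending 1) and 26.2 CPM (ending 2) in granulosa-like cells, 78.9 and 23.1 CPM in ovarian surface epithelium-like, 75.0 and 20.4 CPM in stroma-like, 95.6 and 17.8 CPM in endothelial-like, 332 and 57.8 CPM in macrophage-like and 852 and 210 CPM in meiotic-like cells. The log2 ratios ran from 1.44 (1.32 to 1.56) in RA-responsive-like to 2.52 (1.86 to 3.16) in macrophage-like cells. In erythroid-like cells the ratio of HIST1H1E was -0.25 (-1.04 to 0.59). In ovarian surface epithelium-like cells, which formed 1 cluster with 660 and 601 cells of the 2 endings, 11 of 13 members were at least 2-fold higher with ending 1, against 6.40% of all genes, and 0 were lower, against 3.59%. In stroma-like cells 12 of 15 were higher, against 8.59%, and in granulosa-like cells 15 of 18, against 12.3%. In RA-responsive-like cells 5 of 15 were higher, against 6.75%, and in meiotic-like cells 9 of 15, against 5.81%. None of the members compared was 2-fold lower in these 4 groups, against 4.99%, 4.71%, 5.27% and 7.98% of all genes. Without the 30 UMI minimum, every member with UMIs in both endings was higher with ending 1 in granulosa-like (21 members), ovarian surface epithelium-like (21), stroma-like (19), endothelial-like (16) and macrophage-like cells (8). In meiotic-like cells 18 of 19, in RA-responsive-like cells 15 of 21 and in erythroid-like cells 1 of 13 were higher. The share of all genes higher with ending 1 was not computed beside these counts. Some of the members had few UMIs, such as HIST3H2BB with 3 and 3 in ovarian surface epithelium-like cells. Among genes with 30 UMIs, the median log2 ratio over all genes ran from -0.55 in erythroid-like to 0.14 in granulosa-like cells.

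HIST2H2AC differed less than HIST1H1E wherever ending 1 was higher, with log2 ratios of 0.50 (0.36 to 0.65) in ovarian surface epithelium-like, 0.20 (0.08 to 0.33) in stroma-like, 0.64 (0.57 to 0.71) in granulosa-like and 0.37 (-0.02 to 0.73) in endothelial-like cells. It stood at 0.83 (0.67 to 0.99) in meiotic-like, 0.73 (0.20 to 1.22) in macrophage-like and 1.23 (0.90 to 1.55) in the proliferating stroma-like cells led by INSL3. In RA-responsive-like cells it was lower with ending 1, at -0.33 (-0.44 to -0.22), and in erythroid-like cells at -1.51 (-2.23 to -0.79). The S phase genes differed less than the members in most classes, at 0.42 in ovarian surface epithelium-like, 0.14 in stroma-like, -0.27 in RA-responsive-like and -0.09 in meiotic-like cells, where the 20 members without the most abundant pair were at 1.71, 1.41, 0.88 and 1.44. In erythroid-like cells the S phase list differed as much, at -1.70 (-1.94 to -1.46) against -1.64 (-2.31 to -0.98) for these 20 members. The list of G2 and mitosis was at 0.86 in granulosa-like cells, where the 20 members were at 1.47, and their part in the difference was not tested. In the proliferating stroma-like cluster, with 81 and 121 cells, all members stood at 1166 CPM with ending 1 and 292 CPM with ending 2, the S phase list at 2042 and 1856 CPM. Fetus, stage and library preparation differ together between the endings and cannot be told apart. In granulosa-like, stroma-like, RA-responsive-like and meiotic-like cells the mix of clusters differed between the endings too. The stroma-like cluster led by C7 had 7 and 2468 cells of endings 1 and 2, and that led by POSTN 1841 and 55. The granulosa-like cluster led by SOST had 2272 and 112, and that led by MNDA 3 and 982. The part of this mix in the differences was not tested.

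**Figure D5:**
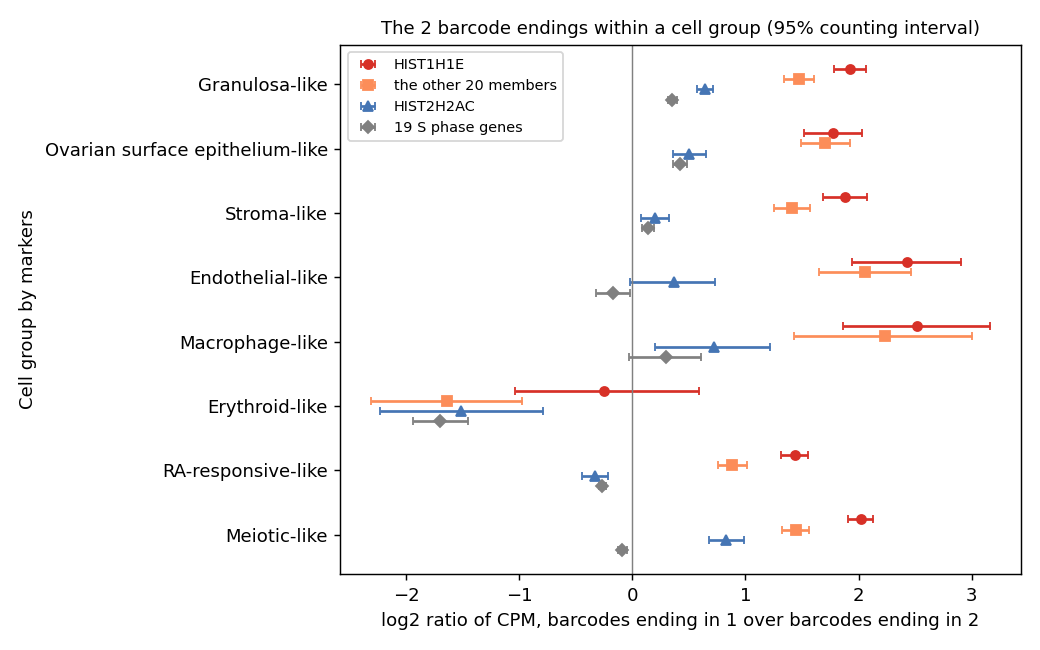
Log2 ratio of CPM (x axis) of barcodes ending in 1 over barcodes ending in 2 within 8 cell groups (y axis) for HIST1H1E, HIST2H2AC, the other 20 members summed and 19 S phase genes summed, with 95% counting intervals. HIST1H1E lies between 1.44 and 2.52 in 7 groups and at -0.25 in erythroid-like cells.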

How the data were processed

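Single-cell RNA was measured in whole fetal ovaries, with 1 library for each of 2 fetuses. The authors deposited raw UMI counts for each gene and cell. They had aligned the reads to Macaca_fascicularis_5.0 with Cell Ranger 3.0.2 and loaded the counts into Seurat. Neither removal of doublets nor a correction for free RNA is stated. The members, lists and comparisons were chosen with earlier results of these data known.

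All cells were used, since a limit of 3000 genes removes 4675 of them. With Seurat 5.3.0 under R 4.3.3, 2000 variable genes without the members, 18 principal components and 20 neighbours were clustered at resolution 0.6, and germ cell-like cells again likewise. A name needed 3 markers, each found in 5% of cells at 1.5 times the level elsewhere (10 CPM added), and was withheld where another list led. The rules on names with few markers, or on somatic genes leading germ sub-clusters, were set after the data were seen. They left unnamed 2 clusters and 3 germ sub-clusters. Scrublet called 0 cells, so the 8% with the highest scores were removed in an alternative.

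Levels are summed UMIs as CPM with exact 95% Poisson intervals, ratios of 2 groups have exact intervals from the split of their UMIs, and shares have exact binomial ones. All cover counting error only. At 0 UMIs the limit is 3 counts. Genes were compared from 30 UMIs and called at 2-fold, with no test. Members named are the 3 most abundant of each type, HIST1H2AA, HIST1H2BA, HIST3H3, and the 3 with the largest fold each way in each step comparison. The other members named were chosen after their values were seen. Cells were thinned to 2000 UMIs without replacement. On simulated counts of 12294 genes for the meiotic-like and RA-responsive-like cells, 95.8% of intervals held the true ratio. These counts were drawn as Poisson, as the intervals assume. The simulation thus checked the calculation only, and not the gathering of UMIs in single cells. Only HIST1H2AA and HIST1H2BA were looked up in the RefSeq table (T2T-MFA8v1.1, another assembly), by their current symbols and for their order alone, and both matched. Versions were scanpy 1.11.5, scipy 1.17.1, numpy 2.4.6 and pandas 2.3.3 under Python 3.11.15.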

Additional observations from a re-analysis of the deposited data

How the results depend on the processing

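No paired analysis was possible because each stage had 1 library and no result came from a test. Of 89 repeated values, 51 stayed within the interval of the main value, or within 1.5 times the main count, and 38 moved further. None of the log2 ratios changed sign. Counts were judged by size alone and not by direction. The meiotic-like count with at most 10% mitochondrial UMIs was among the 51. Its balance nevertheless turned, from 8 higher and 2 lower to 2 higher and 5 lower. The cause of these shifts was not tested.

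For all members in germ cell-like over somatic cells (log2 ratio 1.44), the alternatives gave 1.75 with 200 to 3000 detected genes, 1.64 with at most 10% mitochondrial UMIs, 1.48 at resolution 0.4, 1.53 at resolution 1.0, 1.53 as the mean of single cells, 1.52 without the cells of highest doublet score, and 1.36 and 1.34 within barcodes ending in 1 and in 2. RA-responsive-like over mitotic-like cells (0.87) gave 1.02 with the gene limits, 1.02 with the mitochondrial limit, 0.59 at resolution 1.0, 0.96 as the mean of single cells and 1.08 within barcodes ending in 1. Meiotic-like over RA-responsive-like cells (0.71) gave 0.65 with the gene limits, 0.38 with the mitochondrial limit, 0.92 at resolution 1.0, 0.79 with the members kept among the variable genes, 0.83 as the mean of single cells, and 1.00 and 0.087 within the endings. Oogenesis-like over meiotic-like cells (-1.53) gave -1.76 with the gene limits, -1.17 with the mitochondrial limit, -1.69 as the mean of single cells and -0.47 within barcodes ending in 2.

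HIST1H2AA and HIST1H2BA in germ cell-like over somatic cells (3.99) gave 4.53, 4.25, 4.25 and 4.40 with the gene limits, the mitochondrial limit and resolutions 0.4 and 1.0, 4.16 with the members kept, 3.74 as the mean of single cells, 4.58 without high doublet scores, and 3.74 and 4.16 within the endings. Somatic cells with S phase UMIs over those with none (0.41) gave 0.59 with the mitochondrial limit, and germ cells (1.25) gave 0.58 when thinned to 1000 UMIs. The count of members 2-fold apart in the oogenesis-like step went from 13 of 17 compared to 4 of 6 with the gene limits and 3 of 6 with the mitochondrial limit, where fewer members reached 30 UMIs. In the meiotic-like step it went from 10 (8 higher, 2 lower) to 6 (3 and 3) within barcodes ending in 2, and with the mitochondrial limit to 7, of which 2 were higher and 5 lower.

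The alternatives within endings were chosen after seeing the data. With 1 fetus per stage, differences between animals cannot be estimated, and members with few UMIs, such as HIST3H2A and HIST3H2BB, could not be compared between steps at this depth.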
